A study of Mus musculus with 21 samples.

Results

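ETS transcription factors were described across 4 genotypes of mouse bone marrow c-kit+ cells, which are mostly immature blood cells. The 10 genes are Erg, Fli1, Spi1, Spib, Ets1, Ets2, Etv6, Elf1, Elk3 and Gabpa, chosen by name from 54532 genes in the RNA-seq count table. Earlier results of these data were known when they were chosen. The table holds 26 ETS genes in all. Each of the 10 passed the filter on low counts, as did 10 of the other 16.

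The cells were Asxl1-/-Jak2V617F (n = 3 libraries), Jak2V617F (n = 3), Asxl1-/- (n = 2) and WT (n = 3), all of strain C57BL/6 and enriched from femur and tibia marrow with CD117 beads after red cell lysis. Asxl1 encodes a chromatin regulator, and Jak2V617F is the activated kinase of myeloproliferative neoplasms. The sources used here do not say how each allele was made, in which cells it acts or how old the mice were, and the labels do not say whether libraries of a group came from separate animals. Chromatin data were not analysed here.

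ETS factors share a DNA-binding domain that recognises a GGAA core, and each has its own partners and range of targets. In blood, Spi1 (PU.1) drives myeloid and early B cell genes, Erg and Fli1 maintain stem cells and megakaryocytes, and Ets1 acts mainly in lymphocytes. Others act as repressors, such as Etv6, or broadly on housekeeping genes, such as Gabpa.

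Total counts were 16198011 to 19196283 per library. Levels are CPM, read counts scaled to library size with TMM factors, and levels of different genes were compared as RPKM, CPM per kilobase of gene length. Asxl1 was 93.5 to 100 CPM in Asxl1-/-Jak2V617F and 89.0 and 97.0 CPM in Asxl1-/-, against 132 to 196 CPM in Jak2V617F and 161 to 164 CPM in WT. Jak2 was 86.1 to 97.3 CPM in Asxl1-/-Jak2V617F, 121.5 to 129.0 CPM in Jak2V617F, 99.8 and 103.0 CPM in Asxl1-/- and 71.7 to 83.4 CPM in WT. The Jak2V617F libraries stood apart from the other 8. Along the first principal component, with 51.5% of the variance, they lay at 98.5 to 105 and the others at -47.3 to -17.8. Kit, the gene of the enriched surface protein, was 218.8 to 338.3 CPM over the 11 libraries. Y-linked reads (192, 194 and 248 CPM) occurred in both libraries of Asxl1-/- and in Jak2V617F 2 but in no other library, so sex differed within and between groups.

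Cell type markers also moved with the genotypes. The summed level of 10 neutrophil markers was 40500 to 50100 CPM in Asxl1-/-Jak2V617F, 2550 to 5600 CPM in Jak2V617F, 66700 and 67900 CPM in Asxl1-/- and 44700 to 60100 CPM in WT. For 10 monocyte and macrophage markers it was 3350 to 3650, 290 to 786, 7430 and 8020, and 4320 to 6880 CPM in the same order of genotypes. For 10 erythroid markers it was 1590 to 2680, 4730 to 5870, 1730 and 1920, and 1140 to 1960 CPM. The sum of 10 conventional dendritic cell markers was 297 to 442 CPM in Asxl1-/-Jak2V617F, 2250 to 3110 CPM in Jak2V617F, 371 and 480 CPM in Asxl1-/- and 236 to 389 CPM in WT. That of 8 progenitor markers was 856 to 1040, 637 to 743, 1050 and 1100, and 995 to 1090 CPM. Every marker of these 5 lists had counts in every genotype. The monocyte and macrophage list did not move as one. By edgeR's quasi-likelihood test at an adjusted p under 0.05, 10 of 10 were lower in Jak2V617F than in WT. Between Asxl1-/-Jak2V617F and Jak2V617F 5 were higher and 0 lower, and Adgre1, Vcam1, C1qa, C1qb and C1qc did not pass. All genes tested gave 29.2% lower in the first comparison, and 24.5% higher and 19.8% lower in the second. The part of these cell types in the results on the ETS genes was not tested. In such bulk samples, fewer cells of a type and less RNA per cell cannot be told apart.

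Promoter sequence was matched for 7 of the 10 genes, with 10 start sites, from RefSeq (GRCm38.p6). Erg has 3 of these start sites, Elf1 has 2 and the other genes 1 each. The 250 bases before the start farthest upstream are shown for 4 genes that moved together in the comparisons below, Erg, Etv6, Elf1 and Elk3, and for Spib, which did not move with them. Capitals mark GGAA or its reverse complement TTCC, the core that the ETS domain recognises. The windows are chr16:95586594-95586843 (minus strand) for Erg, chr6:134035450-134035699 (plus strand) for Etv6, chr14:79480944-79481193 (plus strand) for Elf1, chr10:93311160-93311409 (minus strand) for Elk3 and chr7:44532072-44532321 (minus strand) for Spib.
Erg: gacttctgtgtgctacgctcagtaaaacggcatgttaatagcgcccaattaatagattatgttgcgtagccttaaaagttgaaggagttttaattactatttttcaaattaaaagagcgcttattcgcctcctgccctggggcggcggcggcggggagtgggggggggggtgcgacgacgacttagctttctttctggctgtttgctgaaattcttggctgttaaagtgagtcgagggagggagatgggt
Etv6: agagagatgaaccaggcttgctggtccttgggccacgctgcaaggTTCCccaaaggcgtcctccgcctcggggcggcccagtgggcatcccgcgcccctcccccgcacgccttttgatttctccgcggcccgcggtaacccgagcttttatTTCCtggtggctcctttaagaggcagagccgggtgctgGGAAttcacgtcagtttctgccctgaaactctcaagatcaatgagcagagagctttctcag
Elf1: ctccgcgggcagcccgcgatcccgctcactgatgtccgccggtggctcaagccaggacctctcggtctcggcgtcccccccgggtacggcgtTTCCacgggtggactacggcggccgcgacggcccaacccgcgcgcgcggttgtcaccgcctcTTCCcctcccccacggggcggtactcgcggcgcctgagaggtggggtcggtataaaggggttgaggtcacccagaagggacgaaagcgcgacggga
Elk3: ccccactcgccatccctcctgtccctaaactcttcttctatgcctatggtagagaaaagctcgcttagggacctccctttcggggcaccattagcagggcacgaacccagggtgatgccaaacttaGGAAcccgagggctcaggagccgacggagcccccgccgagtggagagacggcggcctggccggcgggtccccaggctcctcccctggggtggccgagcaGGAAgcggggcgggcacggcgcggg
Spib: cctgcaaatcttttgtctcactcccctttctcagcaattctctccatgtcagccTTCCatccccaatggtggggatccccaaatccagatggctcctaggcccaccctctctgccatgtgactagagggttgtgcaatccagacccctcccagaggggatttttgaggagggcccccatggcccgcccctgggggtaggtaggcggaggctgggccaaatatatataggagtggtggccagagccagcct
Counted on both strands, the core occurred 0 times in the Erg window shown, 3 times in Etv6, 2 times in Elf1, 2 times in Elk3 and 1 time in Spib. The windows of the other Erg starts, not shown, held 4 cores (chr16:95530366-95530615) and 2 cores (chr16:95459349-95459598), and the other Elf1 window (chr14:79515424-79515673) held 0. Ets2, also matched, moved with the 4 genes shown, and its window, not shown, held 1 core. The core was in 8 of the 10 start site windows of the matched genes, and in 93.4% of all 32851 promoter windows of 250 bases. The longer form CCGGAA, or TTCCGG, contains the core and was in 1 of the 10 windows, that of Gabpa, which held 5 cores, and in 12% of all windows. The Erg window shown held 14 CpG sites, against 2 and 3 in the other Erg windows. A match or its absence here is a description of the letters.

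With both lesions, 8 of the 10 genes were above their Jak2V617F level and 0 below it by edgeR's quasi-likelihood test at an adjusted p under 0.05. The same 8 were lower in Jak2V617F than in WT, and 0 were higher. They were Erg, Fli1, Spi1, Ets1, Ets2, Etv6, Elf1 and Elk3. Of all 16262 genes tested, 24.5% were called higher and 19.8% lower in Asxl1-/-Jak2V617F against Jak2V617F, and 24.4% higher and 29.2% lower in Jak2V617F against WT. The median log2 fold change of the 10 genes was 1.26 in Asxl1-/-Jak2V617F against Jak2V617F, beside -0.01 over all genes tested. In Jak2V617F against WT it was -1.12, beside -0.05 over all genes. Both comparisons use the same 3 Jak2V617F libraries, so their values are not independent of each other. As the 10 genes were chosen with earlier results known, their contrast with all genes is a description. At an unadjusted p under 0.05, 0 of the 10 genes were higher in Jak2V617F than in WT, while DESeq2 called 1, Gabpa. Between Asxl1-/-Jak2V617F and Jak2V617F, 1 was lower at that unadjusted p and by DESeq2, Spib.

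**Figure D1:**
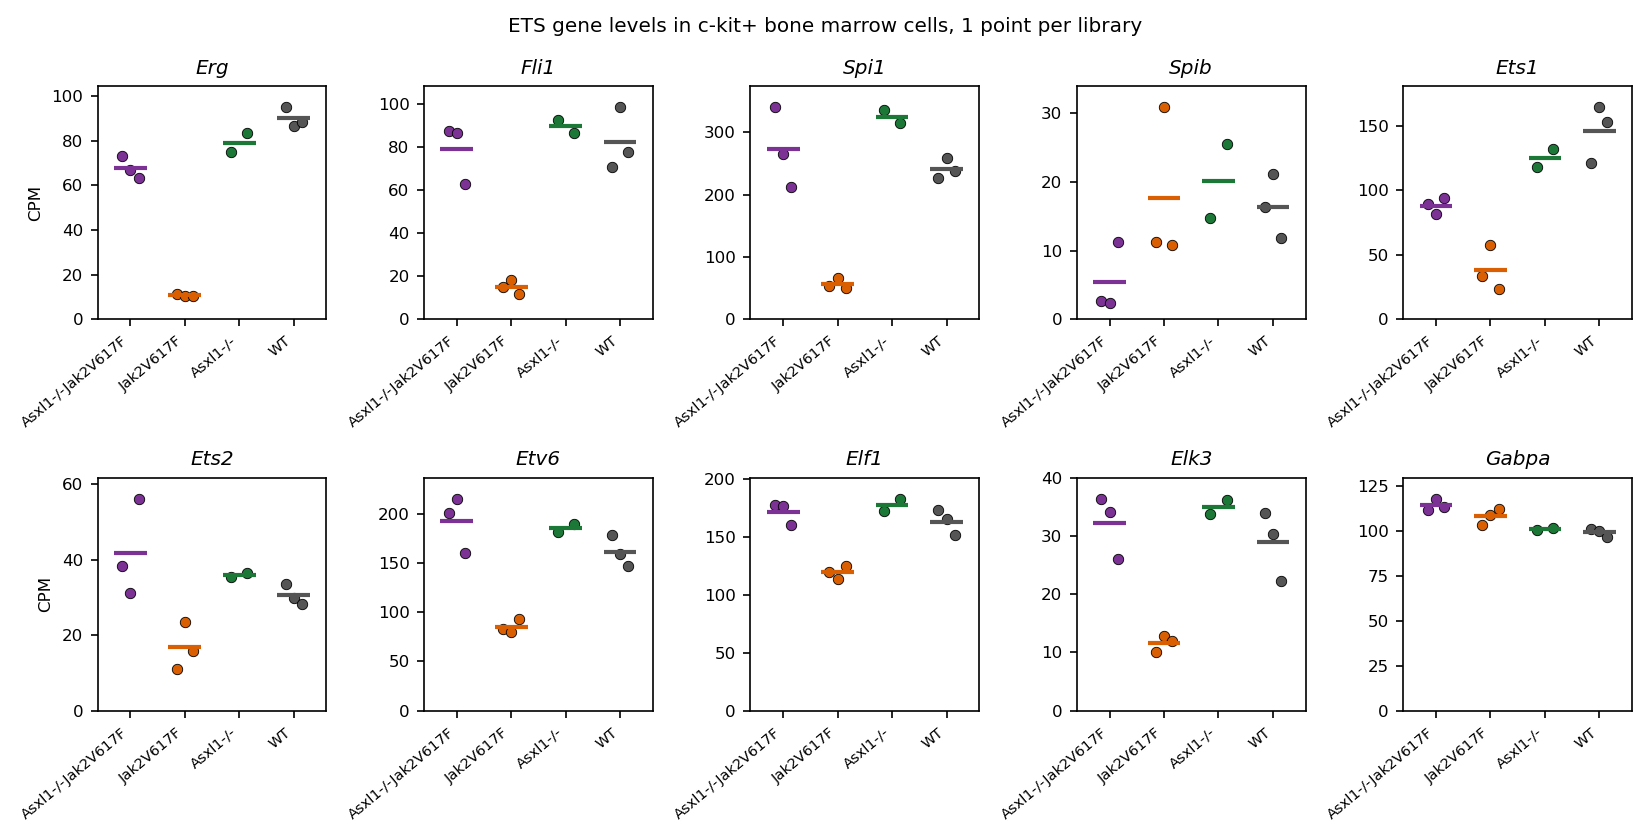
CPM of each ETS gene (vertical axis, from 0) in the 11 libraries, grouped by genotype. Points are libraries and bars are group means. The Jak2V617F points lie below every other point for 8 of the 10 genes, and the exceptions are Spib and Gabpa. The share of all genes tested that separate in this way was not counted.

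Erg encodes a factor needed to maintain blood stem cells and lies on chromosome 16, 95359169 to 95586593 (mm10, minus strand, ENSMUSG00000040732). It was 73.3, 66.9 and 63.3 CPM in Asxl1-/-Jak2V617F cells, 11.5, 10.5 and 10.2 CPM in Jak2V617F, 75.1 and 83.4 CPM in Asxl1-/-, and 95.1, 86.8 and 88.4 CPM in WT. The 4 genotypes were ordered WT, Asxl1-/-, Asxl1-/-Jak2V617F and Jak2V617F from high to low, and no neighbours in that order overlapped. Erg was higher in Asxl1-/-Jak2V617F than in Jak2V617F cells by a log2 fold change of 2.66 ± 0.09 (± SE here and below, adjusted p = 7.53e-08), a 6.31-fold higher level. Erg fell by 3.07 ± 0.10 log2 units in Jak2V617F relative to WT (adjusted p = 1.65e-08). It was the one gene of the 10 called in Asxl1-/-Jak2V617F against WT, at a log2 difference of -0.41 ± 0.09 (adjusted p = 0.0146). Without Asxl1-/-Jak2V617F 2 that call did not hold (-0.37, adjusted p = 0.0635).

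Fli1, the closest relative of Erg and a regulator of megakaryocyte genes, lies on chromosome 9, 32422204 to 32542861 (minus strand, ENSMUSG00000016087). It was 87.6, 86.8 and 62.7 CPM in Asxl1-/-Jak2V617F cells, 15.0, 18.1 and 11.9 CPM in Jak2V617F, 92.7 and 86.6 CPM in Asxl1-/-, and 70.8, 98.6 and 77.6 CPM in WT. Only the Jak2V617F libraries were separate, and the other 3 genotypes overlapped with their neighbours in order of mean level. Fli1 was higher in Asxl1-/-Jak2V617F than in Jak2V617F cells by a log2 fold change of 2.40 ± 0.19 (adjusted p = 2.88e-06). Relative to WT, Fli1 fell by 2.45 ± 0.19 log2 units in Jak2V617F (adjusted p = 2.04e-06). Per length, Erg was at 0.775 to 1.02 times the level of Fli1 in Asxl1-/-Jak2V617F, 0.586 to 0.863 in Jak2V617F, 0.815 and 0.969 in Asxl1-/-, and 0.886 to 1.35 in WT. These ranges of the RPKM ratio overlap between Asxl1-/-Jak2V617F and Jak2V617F, and those of Jak2V617F lie below those of WT.

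Spi1 encodes PU.1, which drives myeloid genes, and lies on chromosome 2, 91082390 to 91115756 (plus strand, ENSMUSG00000002111). It was 340.3, 265.8 and 212.3 CPM in Asxl1-/-Jak2V617F cells, 53.8, 66.7 and 50.1 CPM in Jak2V617F, 335.3 and 314.6 CPM in Asxl1-/-, and 226.7, 258.9 and 237.2 CPM in WT. The Jak2V617F libraries were lowest, and the WT range lay inside that of Asxl1-/-Jak2V617F. Spi1 was higher in Asxl1-/-Jak2V617F than in Jak2V617F cells by a log2 fold change of 2.26 ± 0.16 (adjusted p = 1.64e-06). With Jak2V617F alone, Spi1 fell by 2.08 ± 0.16 log2 units relative to WT (adjusted p = 2.29e-06). In Asxl1-/- against WT it was 0.43 ± 0.17 (adjusted p = 0.0919), with no overlap between the libraries of the 2 genotypes. That difference passed in a fit of the compared groups alone (0.42, adjusted p = 0.0249), without Asxl1-/-Jak2V617F 1 (0.43, adjusted p = 0.0412) and without Asxl1-/-Jak2V617F 3 (0.43, adjusted p = 0.0362). It did not pass under the other 15 of 18 alternatives. With a sex term it was 0.07 (adjusted p = 0.89), and these 2 genotypes differed in sex.

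Spib, a relative of Spi1 that acts in B cells and plasmacytoid dendritic cells, departed from this pattern (chromosome 7, 44525993 to 44532071, minus strand, ENSMUSG00000008193). It was 2.64, 2.35 and 11.2 CPM in Asxl1-/-Jak2V617F cells, 11.2, 30.9 and 10.8 CPM in Jak2V617F, 14.8 and 25.5 CPM in Asxl1-/-, and 16.3, 21.1 and 11.8 CPM in WT. The 2 lowest libraries were both Asxl1-/-Jak2V617F, while Asxl1-/-Jak2V617F 3 lay within the Jak2V617F range. The difference between Asxl1-/-Jak2V617F and Jak2V617F was -1.72 ± 0.66 on the log2 scale (adjusted p = 0.062). It passed without Asxl1-/-Jak2V617F 3 (-2.82, adjusted p = 0.00397) and by DESeq2 (-1.74, adjusted p = 0.03). It did not pass under the other 16 of 18 alternatives, among them the sex term (-1.04, adjusted p = 0.233). Jak2V617F against WT gave 0.10 ± 0.63 (adjusted p = 0.902), and its sign turned with a sex term (-0.58, adjusted p = 0.478). Without Asxl1-/-Jak2V617F 3, Spib also passed in Asxl1-/-Jak2V617F against WT (-2.72, adjusted p = 0.0219) and against Asxl1-/- (-3.01, adjusted p = 0.0299).

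B cell markers were set beside Spib. The summed level of 10 B lymphoid markers was 45.5, 34.2 and 152 CPM in Asxl1-/-Jak2V617F cells, 95.3, 281 and 87.5 CPM in Jak2V617F, 197 and 378 CPM in Asxl1-/-, and 299, 243 and 253 CPM in WT, and none of the 10 was at 0 in a whole genotype. Within Asxl1-/-Jak2V617F, within Jak2V617F and within Asxl1-/-, the library with the highest Spib also had the highest B lymphoid sum. This was not so in WT. The single markers did not all go the way of Spib. Between Asxl1-/-Jak2V617F and Jak2V617F, 2 of the 10 rose and 3 fell (median -1.11), beside 24.5% higher and 19.8% lower of all genes. Between Jak2V617F and WT 1 rose and 2 fell (median -0.79), beside 24.4% higher and 29.2% lower. No difference of these counts from the shares of all genes was tested. Vpreb1, a surrogate light chain gene of B cell precursors, was 3.76, 3.03 and 13.2 CPM in Asxl1-/-Jak2V617F cells, 0.376, 1.18 and 1.32 CPM in Jak2V617F, 28.5 and 46.3 CPM in Asxl1-/- and 34.0, 16.2 and 28.3 CPM in WT. It was thus higher in Asxl1-/-Jak2V617F than in Jak2V617F (2.78 ± 0.69, adjusted p = 0.00999), as was Igll1, its partner chain (3.22 ± 0.91, adjusted p = 0.021). The 3 that fell were Cd22 (-3.23 ± 0.51, adjusted p = 0.000681), Ms4a1 (-3.80 ± 0.85, adjusted p = 0.00597) and Blk (-2.82 ± 0.97, adjusted p = 0.0405), all named after their values were seen. In Jak2V617F relative to WT, where Spib was at 0.10, Vpreb1 (-4.75 ± 0.70, adjusted p = 0.000402) and Igll1 (-5.20 ± 0.93, adjusted p = 0.00171) fell and Cd22 rose (1.31 ± 0.46, adjusted p = 0.0365). The sum of 10 plasmacytoid dendritic cell markers was 162 to 195 CPM in Asxl1-/-Jak2V617F, 143 to 163 CPM in Jak2V617F, 232 and 258 CPM in Asxl1-/- and 198 to 249 CPM in WT. The part of these cells in the Spib values was not tested.

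**Figure D2:**
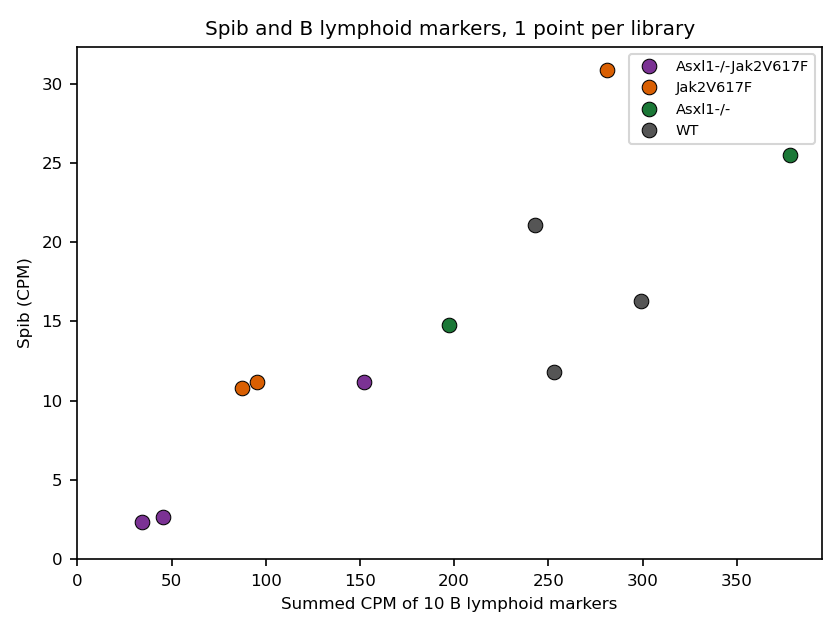
Spib (vertical axis, CPM) against the summed CPM of 10 B lymphoid markers (horizontal axis) in the 11 libraries, coloured by genotype. The 2 libraries with the lowest Spib, at 2.64 and 2.35 CPM, also have the lowest marker sums, at 45.5 and 34.2 CPM.

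The ratio of Spi1 to Spib per length differed widely between genotypes. The RPKM of Spi1 over that of Spib was 137.3, 120.6 and 20.2 in Asxl1-/-Jak2V617F and 5.10, 2.30 and 4.93 in Jak2V617F. It was 24.1 and 13.2 in Asxl1-/-, and 14.8, 13.0 and 21.4 in WT. All 3 Jak2V617F libraries lay below the other 8, and Asxl1-/-Jak2V617F 3 lay within the range of WT.

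Ets1, an activator of lymphoid genes, lies on chromosome 9, 32636221 to 32757820 (plus strand, ENSMUSG00000032035). It was 89.2, 81.4 and 93.8 CPM in Asxl1-/-Jak2V617F cells, 33.4, 57.6 and 23.3 CPM in Jak2V617F, 118.1 and 132.3 CPM in Asxl1-/-, and 120.9, 164.6 and 152.9 CPM in WT. Asxl1-/-Jak2V617F lay between Jak2V617F on one side and Asxl1-/- and WT on the other, with no overlap on either side. Ets1 was higher in Asxl1-/-Jak2V617F than in Jak2V617F cells by a log2 fold change of 1.21 ± 0.28 (adjusted p = 0.00607). Ets1 fell by 1.94 ± 0.28 log2 units in Jak2V617F relative to WT (adjusted p = 0.000316). Between Asxl1-/-Jak2V617F and WT it was -0.73 ± 0.27 (adjusted p = 0.0954), which passed by DESeq2 (-0.71, adjusted p = 0.028), with a sex term (-0.73, adjusted p = 0.015), with the compared groups alone (-0.70, adjusted p = 0.0265), and when Jak2V617F 2 (-0.70, adjusted p = 0.0141) or 3 (-0.72, adjusted p = 0.0303) was left out. The summed level of 10 T and NK markers was 10.7 to 13.6 CPM in Asxl1-/-Jak2V617F, 34.5 to 86 CPM in Jak2V617F, 23.3 and 41 CPM in Asxl1-/- and 22.1 to 33.8 CPM in WT, so the Jak2V617F libraries, lowest in Ets1, were highest in it on average. The part of these cells in the Ets1 values was not tested.

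Ets2, a target of Ras and MAP kinase signalling, lies on chromosome 16, 95702075 to 95721051 (plus strand, ENSMUSG00000022895). It was 38.3, 31.3 and 56.2 CPM in Asxl1-/-Jak2V617F cells, 11.1, 23.5 and 15.8 CPM in Jak2V617F, 35.4 and 36.5 CPM in Asxl1-/-, and 33.5, 30.0 and 28.3 CPM in WT. The spread within both Jak2V617F genotypes was wide, but no Jak2V617F library reached the lowest of any other genotype. Ets2 was higher in Asxl1-/-Jak2V617F than in Jak2V617F cells by a log2 fold change of 1.32 ± 0.27 (adjusted p = 0.00239). Relative to WT, Ets2 fell by 0.86 ± 0.26 log2 units in Jak2V617F (adjusted p = 0.0181), a call lost when Jak2V617F 1 (adjusted p = 0.0555), Jak2V617F 3 (0.0598) or WT 1 (0.0633) was left out and with no filter on low counts (adjusted p = 0.0646).

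These genes form neighbouring pairs. Fli1 and Ets1 lie on opposite strands of chromosome 9 and point away from each other, 93.4 kb apart with 0 protein-coding genes between them. Erg and Ets2 are arranged the same way on chromosome 16, 115 kb apart, also with 0 protein-coding genes between them. Within each pair the log2 difference between Asxl1-/-Jak2V617F and Jak2V617F was larger for the Erg or Fli1 member (2.66 against 1.32 for Erg and Ets2, and 2.40 against 1.21 for Fli1 and Ets1), and these differences between neighbours were not tested. Per length, Ets1 was at 1.14 to 1.77 times the level of Ets2 in Asxl1-/-Jak2V617F, 1.0 to 2.05 in Jak2V617F, 2.27 and 2.47 in Asxl1-/- and 2.46 to 3.74 in WT.

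Etv6, a repressor required by adult marrow stem cells, lies on chromosome 6, 134035700 to 134270158 (plus strand, ENSMUSG00000030199). It was 201.1, 215.3 and 160.6 CPM in Asxl1-/-Jak2V617F cells, 83.2, 79.7 and 93.4 CPM in Jak2V617F, 181.0 and 189.3 CPM in Asxl1-/-, and 178.9, 159.1 and 146.9 CPM in WT. It was higher in Asxl1-/-Jak2V617F than in Jak2V617F cells by a log2 fold change of 1.17 ± 0.12 (adjusted p = 1.03e-05). With Jak2V617F alone, Etv6 fell by 0.92 ± 0.11 log2 units relative to WT (adjusted p = 4.61e-05). The Jak2V617F libraries were separate from the rest and close to each other.

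Elk3 acts with serum response factor as a repressor that MAP kinase signalling can turn into an activator (chromosome 10, 93247414 to 93311135, minus strand, ENSMUSG00000008398). It was 36.4, 34.2 and 26.1 CPM in Asxl1-/-Jak2V617F cells, 10, 12.9 and 11.9 CPM in Jak2V617F, 33.7 and 36.2 CPM in Asxl1-/-, and 34.0, 30.4 and 22.3 CPM in WT. The other 3 genotypes overlapped, and Jak2V617F lay below them. Elk3 was higher in Asxl1-/-Jak2V617F than in Jak2V617F cells by a log2 fold change of 1.47 ± 0.18 (adjusted p = 4.6e-05). Elk3 fell by 1.31 ± 0.18 log2 units in Jak2V617F relative to WT (adjusted p = 7.71e-05).

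Elf1 and Gabpa moved least. Elf1, an activator of blood and lymphoid genes, lies on chromosome 14, 79481194 to 79582494 (plus strand, ENSMUSG00000036461). It was 178.1, 176.6 and 160.8 CPM in Asxl1-/-Jak2V617F cells, 119.6, 113.9 and 125.0 CPM in Jak2V617F, 173.0 and 183.3 CPM in Asxl1-/-, and 173.1, 165.6 and 151.6 CPM in WT. It was higher in Asxl1-/-Jak2V617F than in Jak2V617F cells by a log2 fold change of 0.52 ± 0.08 (adjusted p = 0.000207), and fell by 0.45 ± 0.08 log2 units in Jak2V617F relative to WT (adjusted p = 0.000417). Both are small changes measured with little spread, since the highest Jak2V617F library lay below the lowest of every other genotype.

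Gabpa encodes the DNA-binding subunit of GA-binding protein, a regulator of mitochondrial and housekeeping genes (chromosome 16, 84834925 to 84863779, plus strand, ENSMUSG00000008976). It was 112.0, 118.1 and 113.5 CPM in Asxl1-/-Jak2V617F cells, 103.4, 108.8 and 112.4 CPM in Jak2V617F, 100.5 and 101.8 CPM in Asxl1-/-, and 101.3, 100.2 and 97.0 CPM in WT. All 11 libraries lay within 1.22 times of each other. Gabpa gave 0.08 ± 0.06 in Asxl1-/-Jak2V617F cells against Jak2V617F cells (adjusted p = 0.324) and 0.12 ± 0.06 in Jak2V617F against WT (adjusted p = 0.135). The second value passed by DESeq2 (0.17, adjusted p = 0.0255) and with median-of-ratios scaling (0.17, adjusted p = 0.0401). Between Asxl1-/-Jak2V617F and WT it was 0.20 ± 0.06 (adjusted p = 0.0534), which passed under 6 of 18 alternatives, among them DESeq2 (0.22, adjusted p = 0.0085).

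**Figure D3:**
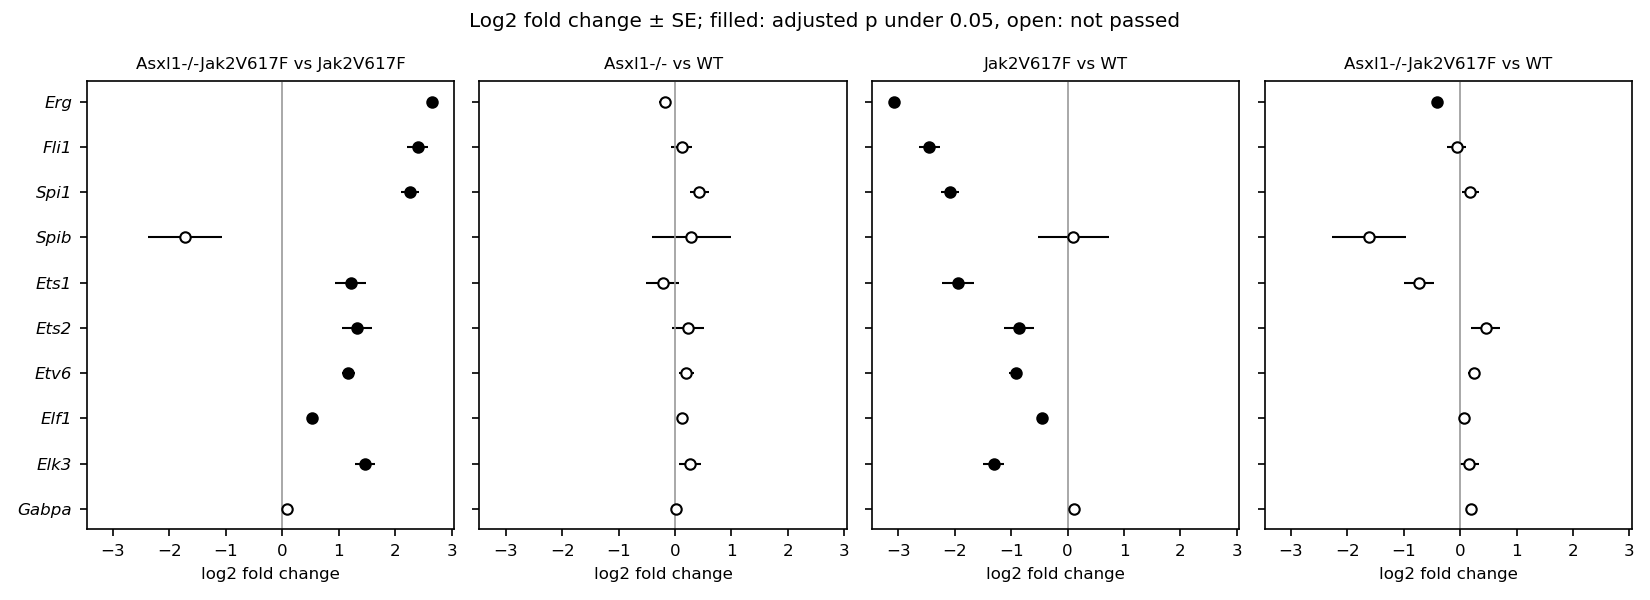
Log2 fold change (horizontal axis, ± SE) of each ETS gene in 4 comparisons, from 1 edgeR fit. Filled points passed an adjusted p of 0.05 and open points did not. Filled points number 8, 0, 8 and 1 from left to right, all positive in the panel of Asxl1-/-Jak2V617F against Jak2V617F and all negative in those of Jak2V617F and of Asxl1-/-Jak2V617F against WT.

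Some of these counts may hold reads of other genes, since the sources used here do not state the strand setting of the counting. Elf1 overlaps Wbp4 (737 to 963 counts per library), Elk3 overlaps Cdk17 (1002 to 1547 counts) and Gabpa overlaps Atp5j (1966 to 2456 counts), each a protein-coding gene on the opposite strand. Genes that overlap Fli1, Ets1 and Etv6 had at most 30 counts in any library.

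Outside Jak2V617F alone, few of the 10 genes differed. In Asxl1-/- against WT edgeR called 0 of 10 higher and 0 lower, against 11.3% and 11.2% of all genes tested. At an unadjusted p under 0.05, 1 gene was higher, Spi1, and DESeq2 called 0. For Asxl1-/-Jak2V617F against WT 0 were higher and 1, Erg, was lower, against 8.30% and 6.76% of all genes. At an unadjusted p under 0.05, 2 were higher, Etv6 and Gabpa, and 3 lower, while DESeq2 called 3. In Asxl1-/-Jak2V617F against Asxl1-/- edgeR called 0 in each direction, against 3.31% higher and 2.22% lower of all genes. There 3 genes had an unadjusted p under 0.05, Erg, Spib and Gabpa, and DESeq2 called 0. The median log2 fold change of the 10 genes was 0.16, 0.12 and -0.15 in these 3 comparisons. Erg was at -0.22 ± 0.10 in Asxl1-/-Jak2V617F against Asxl1-/- (adjusted p = 0.203) and at -0.18 ± 0.10 in Asxl1-/- against WT (adjusted p = 0.189). The Asxl1-/- group has 2 libraries, both with Y-linked reads, and no WT library has them, so these genotypes differed in sex too.

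The effect of Asxl1 loss differed between the Jak2V617F and WT backgrounds. The interaction, the difference of log2 differences (Asxl1-/-Jak2V617F minus Jak2V617F, less Asxl1-/- minus WT), was above 0 for 8 of the 10 genes and below 0 for 0 at an adjusted p under 0.05. DESeq2 called 8 genes too, and at an unadjusted p under 0.05 edgeR had 0 below 0. Of all genes, 23.7% were called above 0 and 17.9% below. The largest was Erg at 2.84 ± 0.14 (adjusted p = 1.98e-06), which had the smallest p of all 16262 genes tested. Fli1 followed at 2.27 ± 0.27 (adjusted p = 0.000143) and Spi1 at 1.83 ± 0.24 (adjusted p = 0.000241). Elk3 was at 1.20 ± 0.26 (adjusted p = 0.00393) and Etv6 at 0.98 ± 0.17 (adjusted p = 0.0012), the last of which did not pass with a sex term (0.78, adjusted p = 0.0843). Ets1 was at 1.43 ± 0.41 (adjusted p = 0.0208), Elf1 at 0.40 ± 0.12 (adjusted p = 0.0166) and Ets2 at 1.08 ± 0.39 (adjusted p = 0.0485). These 3 were lost under some alternatives, and Ets2 kept its call under 4 of 17. With a sex term the interaction was larger for Ets1 (2.88, adjusted p = 0.00134) and Ets2 (2.21, adjusted p = 0.0194) and smaller for Elf1 (0.26, adjusted p = 0.363). Only Jak2V617F has libraries with and without Y-linked reads, so this term rests on Jak2V617F 2 against Jak2V617F 1 and 3. Spib was at -2.01 ± 0.95 (adjusted p = 0.121) and Gabpa at 0.06 ± 0.10 (adjusted p = 0.647).

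The make-up of the ETS family differed as well. The summed RPKM of the 26 ETS genes was 270.6 to 339.4 in Asxl1-/-Jak2V617F, 148.6 to 170.2 in Jak2V617F, 337.0 and 349.4 in Asxl1-/- and 297.7 to 321.3 in WT. Of this sum the 10 genes took 80.6 ± 1.20% in Asxl1-/-Jak2V617F, 60.9 ± 1.90% in Jak2V617F, 81.6 ± 1.63% in Asxl1-/- and 78.8 ± 1.05% in WT (SD, n as above). These shares, being ratios within a library, do not change with the scaling between libraries. Spi1 alone took 32.7 ± 4.14% in Asxl1-/-Jak2V617F, 13.4 ± 1.03% in Jak2V617F, 35.2 ± 2.49% in Asxl1-/- and 29.0 ± 1.19% in WT. Erg with Fli1 took 13.7 ± 0.406%, 4.72 ± 0.384%, 14.2 ± 0.227% and 16.1 ± 0.445% in the same order. Gabpa, whose level varied little, took 6.62 ± 0.787% in Asxl1-/-Jak2V617F and 12.2 ± 1.04% in Jak2V617F, and 5.18 ± 0.0850% in Asxl1-/- and 5.69 ± 0.195% in WT. Elf1 took 8.34 ± 0.519% in Asxl1-/-Jak2V617F and 11.4 ± 1.31% in Jak2V617F.

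Spi1 was the most abundant ETS mRNA per length in every genotype, at a mean of 101.2 RPKM in Asxl1-/-Jak2V617F and 21.1 RPKM in Jak2V617F. In Asxl1-/-Jak2V617F it was followed by Etv6 at 32.1 RPKM and Elf1 at 25.5 RPKM. In Jak2V617F it was followed by Gabpa at 19 RPKM and Elf1 at 17.7 RPKM, and the ranges of Spi1 and Gabpa over the libraries overlapped. Erg ranked 7 of 26 in Asxl1-/-Jak2V617F, at 19.6 RPKM, and 14 of 26 in Jak2V617F, at 3.10 RPKM.

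Of the other 16 ETS genes, 10 were tested. In Asxl1-/-Jak2V617F against Jak2V617F, 2 rose and 6 fell, and in Jak2V617F against WT 3 rose and 4 fell. Read against the shares of all genes given above (24.5% higher and 19.8% lower, and 24.4% and 29.2%), only the 6 that fell in the first comparison were well above the background, and no test of that excess was made. Their median log2 fold change was -0.36 in Asxl1-/-Jak2V617F against Jak2V617F and 0.05 in Jak2V617F against WT. Elf4, a relative of Elf1, moved like the 8 genes and was 0.96 ± 0.15 higher on the log2 scale in Asxl1-/-Jak2V617F than in Jak2V617F (adjusted p = 0.000324) and at -1.02 ± 0.15 in Jak2V617F against WT (adjusted p = 0.000151). Erf, an ETS repressor controlled by MAP kinases, had a mean of 31.5 ± 5.67 CPM in Asxl1-/-Jak2V617F, 53.5 ± 7.58 CPM in Jak2V617F, 31.4 ± 1.66 CPM in Asxl1-/- and 23.8 ± 3.62 CPM in WT. It was the opposite of the 8 genes, at -0.76 ± 0.15 in Asxl1-/-Jak2V617F relative to Jak2V617F (adjusted p = 0.0018) and 1.16 ± 0.16 in Jak2V617F against WT (adjusted p = 7.39e-05). Ehf, an epithelial ETS gene, was 1.5 to 3.43 CPM in Jak2V617F and at most 0.572 CPM in the other libraries. Etv1, a member of another ETS branch, was 0.112 to 0.286 CPM in Asxl1-/-Jak2V617F, at most 0.215 CPM in Jak2V617F, 1.40 and 1.69 CPM in Asxl1-/- and 0.844 to 1.17 CPM in WT. Spic, a relative of Spi1 in red pulp and marrow macrophages, was 0.505 to 1.16 CPM in Asxl1-/-Jak2V617F, 1.90 to 8.83 CPM in Jak2V617F, 22.5 and 35.8 CPM in Asxl1-/- and 9.18 to 30.2 CPM in WT.

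ETS factors bind DNA with partners, and 16 such genes were followed. In Asxl1-/-Jak2V617F against Jak2V617F 8 rose and 4 fell (median log2 fold change 0.37), and in Jak2V617F against WT 4 rose and 7 fell (median -0.43). The 4 that fell in the first comparison and the 4 that rose in the second are near the 19.8% and 24.4% of all genes called in those directions. For the 8 that rose in the first and the 7 that fell in the second, the shares of all genes were 24.5% and 29.2%. Cebpa, the myeloid factor that works beside Spi1, was 145.3 ± 43.2 CPM in Asxl1-/-Jak2V617F, 15.1 ± 3.71 CPM in Jak2V617F, 164.1 ± 17.4 CPM in Asxl1-/- and 106.7 ± 18.8 CPM in WT, and was higher in Asxl1-/-Jak2V617F than in Jak2V617F cells by a log2 fold change of 3.26 ± 0.27 (adjusted p = 9.39e-06). Cbfb (1.43 ± 0.15), the beta subunit of core-binding factor, and Lyl1 (1.26 ± 0.15), a helix-loop-helix factor, rose as well. So did Jun, an AP-1 subunit (3.25 ± 0.80, adjusted p = 0.0121), which was 387.5 to 411.6 CPM in Asxl1-/-Jak2V617F, 29.8 to 48.0 CPM in Jak2V617F, 176.1 and 226.4 CPM in Asxl1-/- and 8.79 to 132.2 CPM in WT, a wide spread. Tal1 (-1.32 ± 0.17) and Gata1 (-1.34 ± 0.22), factors of red cells and megakaryocytes, fell. Gata1 was 65.8 to 119.6 CPM in Asxl1-/-Jak2V617F, 203.0 to 242.0 CPM in Jak2V617F, 91.1 and 108.5 CPM in Asxl1-/- and 62.9 to 100.1 CPM in WT, moving with the erythroid marker sum given above, of which it is a member.

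Genes known as ETS targets were counted next. Of 16 myeloid genes linked to Spi1, 12 rose and 1 fell in Asxl1-/-Jak2V617F against Jak2V617F (median 1.93), beside 24.5% higher and 19.8% lower of all genes. In Jak2V617F against WT 1 rose and 13 fell (median -2.36), beside 24.4% higher and 29.2% lower of all genes. Relative to Jak2V617F, Fes, a myeloid tyrosine kinase gene, rose by 2.60 ± 0.14 log2 units in Asxl1-/-Jak2V617F (adjusted p = 2.03e-07), with 229.4 to 301.9 CPM in Asxl1-/-Jak2V617F against 36.2 to 47.5 CPM in Jak2V617F. Ncf4, a cytosolic subunit of the phagocyte oxidase, rose by 2.76 ± 0.20 (adjusted p = 3.02e-06), and Csf2ra, the GM-CSF receptor alpha chain, by 1.83 ± 0.16 (adjusted p = 5.16e-06). Flt3, the cytokine receptor of early lymphoid and dendritic progenitors, was the gene that fell (-0.98 ± 0.17, adjusted p = 0.000672; named after its values were seen), and it is also in the conventional dendritic list. The neutrophil and monocyte marker sums given above were lowest in the same Jak2V617F libraries, and Csf1r is in both this list and the monocyte list.

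Of 11 tested megakaryocyte genes linked to Fli1, 7 rose and 1 fell in Asxl1-/-Jak2V617F against Jak2V617F (median 1.42), beside 24.5% higher and 19.8% lower of all genes. In Jak2V617F against WT 0 rose and 7 fell (median -1.48), beside 24.4% higher and 29.2% lower of all genes. Itga2b, the platelet integrin alpha chain, was 43.8, 49.8 and 35.4 CPM in Asxl1-/-Jak2V617F cells, 11.8, 14.9 and 18.1 CPM in Jak2V617F, 59.3 and 58.4 CPM in Asxl1-/-, and 54.6, 64.6 and 52.6 CPM in WT. It rose by 1.53 ± 0.17 in Asxl1-/-Jak2V617F against Jak2V617F (adjusted p = 2.1e-05), but stayed below both Asxl1-/- and WT in every library. Pf4, platelet factor 4 (1.80 ± 0.25, adjusted p = 0.000119), and Mmrn1, which encodes multimerin (1.99 ± 0.24, adjusted p = 4.23e-05), rose too. Vwf, the von Willebrand factor gene, was the one that fell (-0.45 ± 0.14, adjusted p = 0.0239; named after its values were seen), and Gp1ba, Gp5 and Gp9 did not pass in either comparison. Of 12 endothelial markers, another cell type that uses Erg and Fli1, the summed level was 86.5 to 109 CPM in Asxl1-/-Jak2V617F, 57.1 to 64.1 CPM in Jak2V617F, 106 and 113 CPM in Asxl1-/- and 101 to 111 CPM in WT. Sox17 and Ptprb had 0 counts in Jak2V617F, and all 12 had counts in the other genotypes. Sox17 was near the floor, with at most 6 counts in any library. Of the 10 markers tested, 6 rose and 1 fell in Asxl1-/-Jak2V617F against Jak2V617F, beside 24.5% higher and 19.8% lower of all genes. In Jak2V617F against WT 2 rose and 6 fell, beside 24.4% higher and 29.2% lower. The 2 that rose were Egfl7 (0.69 ± 0.20, adjusted p = 0.0115) and Plvap (0.63 ± 0.19, adjusted p = 0.0142). The part of such cells in the Erg and Fli1 values was not tested.

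Genes linked to the Elk factors and to Gabpa were counted last. Of 10 genes activated through Elk factors and serum response factor, 6 rose and 0 fell in Asxl1-/-Jak2V617F against Jak2V617F (median 1.16), beside 24.5% higher and 19.8% lower of all genes. In Jak2V617F against WT 2 rose and 1 fell (median 0.51), shares at or below the 24.4% and 29.2% of all genes. Fos, an AP-1 subunit, rose by 2.84 ± 0.45 in Asxl1-/-Jak2V617F relative to Jak2V617F (adjusted p = 0.00113), and Ier2, an immediate early gene, by 1.72 ± 0.15 (adjusted p = 5.63e-06), as did Srf, the partner of the Elk factors, by 0.60 ± 0.12 (adjusted p = 0.00181). In Jak2V617F against WT Ier2 fell (-0.87 ± 0.15, adjusted p = 0.000475), and Junb (0.66 ± 0.20, adjusted p = 0.0199) and Egr1 (1.55 ± 0.56, adjusted p = 0.0436) rose. Fos was 245.9 to 311.4 CPM in Asxl1-/-Jak2V617F, 33.0 to 47.4 CPM in Jak2V617F, 75.0 and 102.8 CPM in Asxl1-/- and 23.7 to 77.5 CPM in WT, an order unlike that of Elk3. Of 8 mitochondrial genes linked to Gabpa, 0 rose and 3 fell in Asxl1-/-Jak2V617F against Jak2V617F (median -0.10), and 6 rose and 0 fell in Jak2V617F against WT (median 0.43), beside 19.8% of all genes lower in the first comparison and 24.4% higher in the second. Tfam, the mitochondrial transcription factor, fell by 0.49 ± 0.09 in Asxl1-/-Jak2V617F relative to Jak2V617F (adjusted p = 0.00105), and Polrmt, the mitochondrial RNA polymerase, fell by 0.59 ± 0.11 (adjusted p = 0.00153). Tfb2m, a mitochondrial transcription factor subunit, was at -0.35 ± 0.12 there (adjusted p = 0.0276) and rose by 0.66 ± 0.12 in Jak2V617F against WT (adjusted p = 0.000517). Gabpa itself did not pass in either comparison. Its partner subunits, named after their values were seen, went opposite ways in Asxl1-/-Jak2V617F against Jak2V617F. Gabpb1 rose by 0.38 ± 0.07 (adjusted p = 0.00136) and Gabpb2 was at -0.31 ± 0.07 (adjusted p = 0.00414).

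**Figure D4:**
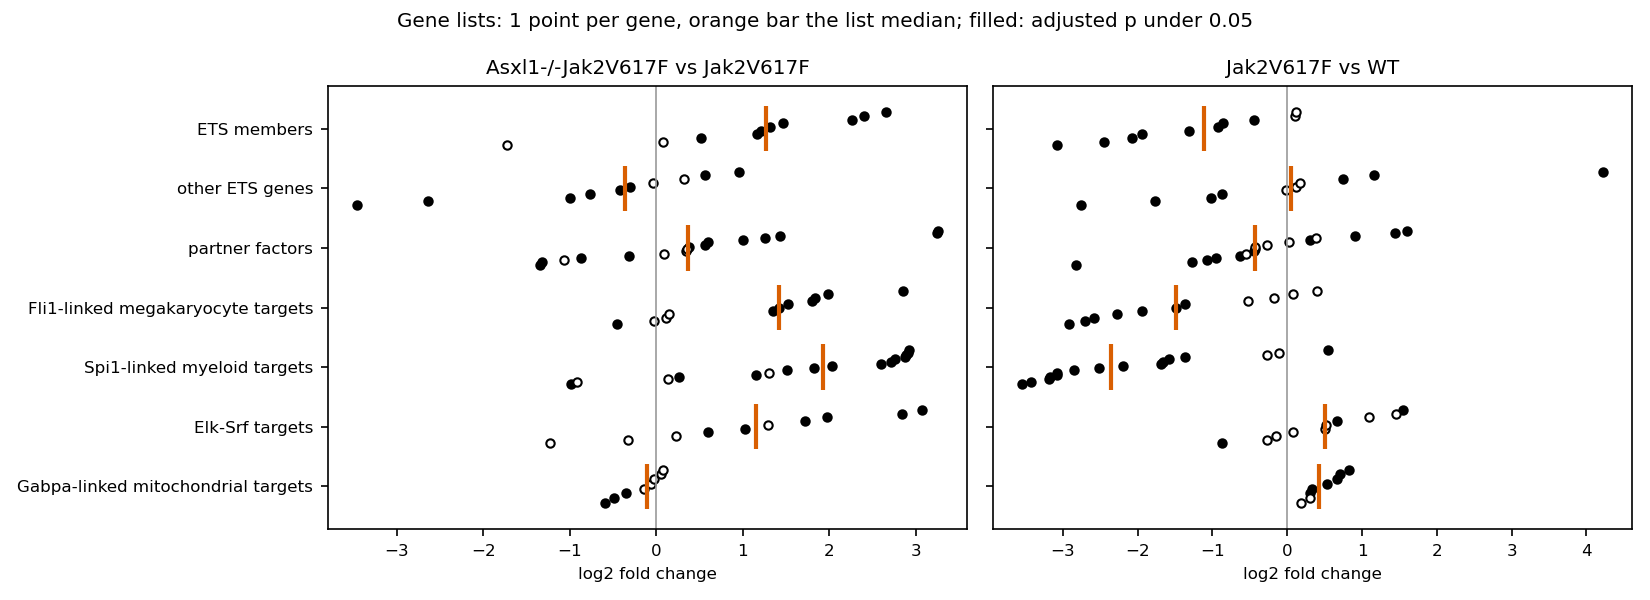
Log2 fold change (horizontal axis) of every tested gene of the ETS genes, the other ETS genes, partner factors and 4 lists of linked targets, in Asxl1-/-Jak2V617F against Jak2V617F and in Jak2V617F against WT, which share the Jak2V617F libraries. Orange bars are list medians, such as 1.26 and -1.12 for the ETS genes and 1.93 and -2.36 for the Spi1-linked genes, and filled points passed an adjusted p of 0.05.

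The genes most like each ETS gene were found by the root mean square difference of centred log2 CPM over the 11 libraries, searched among 9969 protein-coding genes. It is a description in which the 3 Jak2V617F libraries weigh heavily. Erg was nearest to Fes (0.167) and Trim16 (0.168), Fli1 to Tnfrsf1a (0.0923) and Mctp1 (0.116), and Spi1 to Sh3bgrl3 (0.0795) and Msrb1 (0.13). Ets1 was nearest to Hip1 (0.0885) and Il16 (0.158). Spib was nearest to Cd79a (0.354) and Pou2af1 (0.4), at larger distances. Cd79a, the B cell receptor signalling chain, is also 1 of the 10 B lymphoid markers. Among the 10 genes themselves, Fli1 and Spi1 were closest (0.179), followed by Etv6 and Elk3 (0.218), and Spib lay 1.18 to 1.84 from each of the others.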

How the data were processed

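The authors deposited raw read counts per Ensembl gene for 11 RNA-seq libraries. Tools named in the submitters' processing notes, without roles, are DESeq2 1.16.1, HISAT2 2.0.5 and featureCounts 1.5.0-p3, and the build is mm10. The sources used here give neither the annotation release, the strand setting nor how multi-mapping reads were handled. The deposited table also gives gene length and coordinates.

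The 10 genes, the lists and the rule for named genes were chosen with earlier results of these data known. The rule takes all 10 genes, other ETS genes and partner factors past an adjusted p of 0.05 with a change of at least 2-fold (up to 6 per list), the 3 genes of smallest adjusted p in each target list, and the 2 genes nearest to each of Erg, Fli1, Spi1, Spib and Ets1 with a mean CPM of 5 or more.

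Counts were filtered with filterByExpr (16262 genes), TMM-scaled and fitted in R 4.3.3 with the quasi-likelihood method of edgeR 4.0.16, in 1 robust fit of all 11 libraries with a genotype factor. The biological coefficient of variation was 19.7%. P-values were adjusted over all genes tested by Benjamini-Hochberg, with a threshold of 0.05, and ± SE is the absolute log2 fold change over the square root of the F statistic. Log2 CPM used a prior count of 2. The pairwise comparisons, but not the interaction, were checked on simulated counts with known changes. The simulation held far fewer changed genes than were called in the comparisons with Jak2V617F. The chi-square per degree of freedom between replicates was 7.75 to 33.1, above the sampling noise of 1, and no library was merged with another. Spread between libraries, which may be technical, is all that the p-values measure. Alternatives were median-of-ratios scaling, no filter, a filter of 1 CPM in 3 libraries, DESeq2 1.42.0, a replicate block, a sex term, the compared groups alone, and leaving out each library.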

Additional observations from a re-analysis of the deposited data

Results flagged for a closer look

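The effect of Asxl1 loss differed between the Jak2V617F and the WT background for 8 of the 10 ETS genes, by edgeR's interaction test at an adjusted p under 0.05. The difference of log2 differences was 2.84 for Erg, 2.27 for Fli1, 1.83 for Spi1 and 1.43 for Ets1. It was 1.20 for Elk3, 1.08 for Ets2, 0.98 for Etv6 and 0.40 for Elf1. Of all genes tested, 23.7% were called above 0 in that interaction test. For these 8 genes the Asxl1-/-Jak2V617F libraries did not overlap the Jak2V617F libraries. The share of all genes without such overlap was not counted. None of the 8 passed in Asxl1-/- against WT, where 11.3% of all genes were called higher and 11.2% lower. Ets2 kept its interaction call under 4 of 17 alternatives, Ets1 and Elf1 lost theirs under some, and Etv6 lost its call with a sex term. The Asxl1-/- and WT libraries also differed in sex.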

How the results depend on the processing

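The counts of 8 ETS genes called in Asxl1-/-Jak2V617F against Jak2V617F and in Jak2V617F against WT stayed within 1.5 times under all 18 alternatives, and Erg, Fli1, Spi1, Etv6, Elf1, Elk3 and Ets1 kept both calls under all 18. In Asxl1-/- against WT 1 gene was called with a sex term (Ets1) and 1 with the compared groups alone (Spi1), beside 0. Over all genes, 502 were called there with the sex term, beside 3664. In Asxl1-/-Jak2V617F against WT, beside 1, 2 genes were called with median-of-ratios scaling, the stricter filter, the sex term or the compared groups alone, and 3 by DESeq2. In Asxl1-/-Jak2V617F against Asxl1-/- 1 gene was called with the compared groups alone. Over all genes, 899 were called there, 52 with the sex term and 1467 by DESeq2. The interaction called 3079 genes with the sex term, beside 6764. The cause of these shifts was not tested. The sex term takes 1 of few residual degrees of freedom. It is set by Jak2V617F 2 against Jak2V617F 1 and 3 alone, since each other genotype has libraries of a single sex. Sex therefore cannot be told apart from other traits of Jak2V617F 2 in the values with that term.

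With the sex term, signs turned for Spib in Jak2V617F against WT (-0.58) and in the interaction (0.15), for Fli1 (-0.30), Spib (-1.19) and Ets2 (-0.57) in Asxl1-/- against WT, and for Fli1 (0.25), Spi1 (0.11), Ets1 (0.52), Etv6 (-0.09) and Elk3 (0.12) in Asxl1-/-Jak2V617F against Asxl1-/-. None of these had passed.

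Same-numbered libraries did not deviate together (r -0.199 to 0.174, n = 15 pairs) more than others did (r -0.23 to 0.242, n = 30 pairs). With so few libraries per group, a weak pairing by number would not be seen this way. With the replicate block the ETS counts were 8, 8, 0, 1, 0 and, for the interaction, 7, since Ets2 was lost (1.05, adjusted p = 0.0916), and 585 genes were called in Asxl1-/-Jak2V617F against Asxl1-/-.

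Leaving out 1 library at a time, ETS genes called ranged from 0 to 1 in Asxl1-/- against WT, 0 to 3 in Asxl1-/-Jak2V617F against WT, 0 to 1 in Asxl1-/-Jak2V617F against Asxl1-/- and 5 to 8 in the interaction, whose lowest was without Asxl1-/- 1. All genes called ranged from 288 to 4376, 531 to 3493, 86 to 952 and 4483 to 7016 in the same comparisons, lowest without Asxl1-/- 1, WT 2, Asxl1-/- 2 and Asxl1-/- 1. With 1 Asxl1-/- library left, it is assumed to vary like the other groups. Log2 fold changes that crossed 0 were those of Spib in Jak2V617F against WT (-0.53 to 0.37) and in Asxl1-/- against WT (-0.14 to 0.64), of Spi1 (-0.01 to 0.33) and Fli1 (-0.13 to 0.09) in Asxl1-/-Jak2V617F against WT, and of Etv6 (-0.02 to 0.17), Ets2 (-0.05 to 0.40) and Elk3 (-0.21 to 0.01) in Asxl1-/-Jak2V617F against Asxl1-/-. In the interaction, Elf1 was lost without Asxl1-/-Jak2V617F 2 (adjusted p = 0.0534), Jak2V617F 2 (adjusted p = 0.0573) and Asxl1-/- 1 (adjusted p = 0.0907) and with the sex term, and Ets1 without Asxl1-/- 1 (adjusted p = 0.0895) or 2 (adjusted p = 0.058) and with no filter (adjusted p = 0.0708). Spib passed in the interaction without Asxl1-/-Jak2V617F 3 (-3.11, adjusted p = 0.00963). The compared groups alone have no meaning for the interaction, which uses all 4.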
